A study of Gallus gallus with 26 samples.

Results

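In the complexus muscle of broiler chickens, 146 of 8758 genes had a day mean that went up at each of 4 successive steps from embryonic day 15 (E15) to E21, with no single step above 60% of the log2 increase. These genes in gradual rise were chosen by their measured day means in the same 26 libraries that are described below, so their upward course is how they were found and not a finding. The median of their ratios of E21 to E15 level was 3.12, with single genes between 2.01 and 37.3. For all but 19 of the 146 genes the rise per day was steeper from E19 to E21 than from E15 to E19. This pace was also shaped by the selection, which treats steps of different length alike, and it is given as a description. The early part of the rise depended on how libraries were scaled to each other, and with plain library totals 51 of the 146 genes still went up at every step.

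The complexus is the dorsal neck muscle that a chick uses to break the shell. It grows before hatching and regresses afterwards, and it therefore passes through embryonic growth, intense work and recovery within a short time. Around hatching the chick changes from gas exchange through the chorioallantois to breathing air, and its energy supply shifts between carbohydrate reserves and the lipid of the yolk. Skeletal muscle meanwhile replaces embryonic isoforms of contractile proteins with later ones and expands its energy metabolism and calcium handling.

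RNA from frozen complexus was profiled by MARS-Seq, a 3' end RNA sequencing method with early barcoding of samples, with 6 libraries on E15, 6 on E17, 5 on E19, 5 on E20 and 4 on E21. The labels name no treatment, genotype or strain beyond broiler chicken and give a single batch, so age is the only labelled difference between the groups. E20 and E21 follow the labels, while the submitters' design text names the last 2 groups after hatch and placement of chicks. Between the days up to E19 and the last 2 days, age cannot be told apart from hatching and handling of the chicks. Neither the number of birds behind a library nor their sex is given, so errors, given throughout as ± 1 SD over the 6, 6, 5, 5 and 4 libraries of a day, and p-values measure the spread between these libraries, which may be technical. In whole muscle, fewer cells of a type and less RNA per cell cannot be told apart.

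Library totals ranged from 580768 to 2208872 counts. The table gives genes as versioned Ensembl identifiers without names, and 0 of 8758 identifiers matched those listed for 25635 RefSeq genes of the assembly GRCg7b. The lack of matching identifiers does not show that the genes themselves are absent there. Without a match, no member has a name, a function or a sequence here. Defining markers of skeletal muscle or of other cell types could not be looked up for the same reason and are not analysed here. By a rule based on level and size of the increase, 2 identifiers are printed, and all other members are described by counts, ranks and ranges.

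The members were selected on the normalised counts in the deposited table, which are raw counts divided by a size factor for each library. Of 8758 genes, 358 had day means that increased at every step. Of these, 278 reached a mean of at least 20 normalised counts on E21, and 199 of those were also at least 2 times as high on E21 as on E15, with 0.5 added to both means. A further condition, that no step holds more than 60% of the log2 increase, left 155 genes. Finally, 9 genes whose E20 and E21 means were at least 3 times all earlier means were left out as late risers, which gave the 146 members. They are 1.67% of the table and 4.24% of the 3447 genes with a mean of at least 20 on E21.

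Some members lay close to the limits of this selection. The lowest E21 mean inside was 20.01 normalised counts, and the highest just outside among genes that met all else was 18.8. The smallest ratio of E21 to E15 inside was 2.01, against 1.99 outside. The largest share of a single step was 59.9% inside and the smallest outside was 60.7%. A further 100 genes met every other condition but had 1 step whose mean did not increase, most often the step to E21 (33 genes), followed by the steps to E17 (28), to E19 (26) and to E20 (13). The size of the change at that step in these 100 genes is not given here. Among the members, the smallest of the 4 steps was under 0.1 on the log2 scale in 60 and had a median of 0.13. The membership of such genes therefore rests on small differences of means.

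The level of the members was in part set by the rule, which asks for an E21 mean of at least 20 normalised counts. Across the 146 genes the median day mean was 28.9 normalised counts on E15, 38.6 on E17, 53.9 on E19, 83 on E20 and 102.1 on E21. On E21, 33 members had means between 20 and 50, 37 between 50 and 100, 46 between 100 and 300, 21 between 300 and 1000, and 9 above 1000. Among all genes ranked by E21 mean, 64 members were in the top 1000 and 5 in the top 100. Relative to E15, with 0.5 added, the median ratio was 1.2 on E17, 1.63 on E19, 2.5 on E20 and 3.12 on E21. The increase was at least 3-fold in 81 members, at least 4-fold in 43, at least 5-fold in 27 and at least 10-fold in 8. For comparison, the median log2 change from E15 to E21 over the 5901 genes with enough counts to be tested was -0.03.

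**Figure D1:**
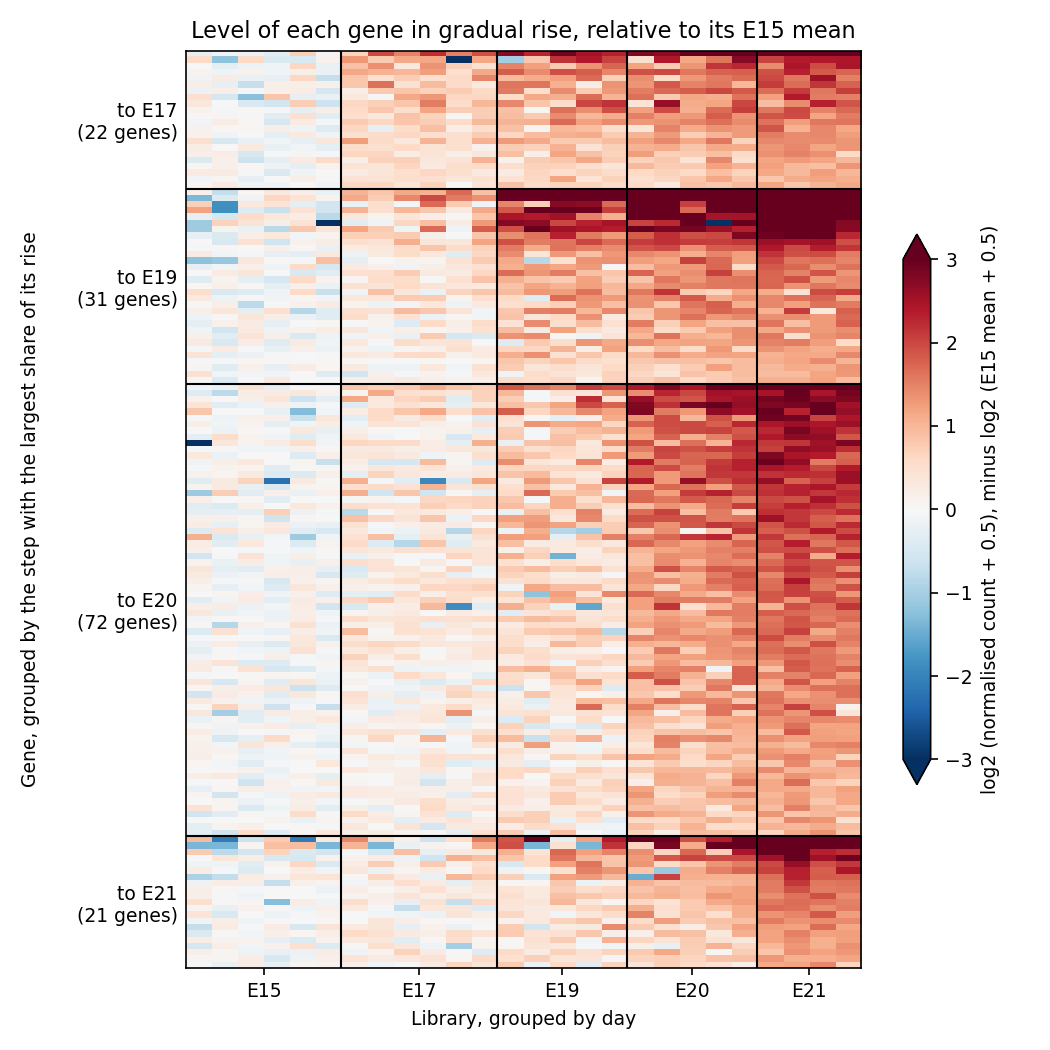
Heat map of the 146 genes in gradual rise (rows) in 26 libraries (columns, grouped by day). Colour is log2 (normalised count + 0.5) relative to the gene's own E15 mean, cut at 3 in both directions, and rows are grouped by the step with the largest share of the gene's increase: 22 genes at the step to E17, 31 to E19, 72 to E20 and 21 to E21.

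The pace of the increase changed within the period. The rule asks for a rise at every step and caps each step at 60%, whatever its length in days. Shares per step are therefore shaped by the selection, and the pace is given as a description. The median share of the log2 increase was 15.9% from E15 to E17, 23.6% from E17 to E19, 36.1% from E19 to E20 and 23.3% from E20 to E21. Because the first 2 steps span 2 days each and the last 2 span 1 day each, a constant rise per day would have given 33.3%, 33.3%, 16.7% and 16.7%. The median rise per day on the log2 scale was 0.13 in the step to E17, 0.19 in the step to E19, 0.54 in the step to E20 and 0.37 in the step to E21. Over the longer intervals the medians were 0.18 per day up to E19 and 0.48 per day afterwards. In 19 members the later pace was the lower of the pair, and in all others it was the higher. A steeper later pace was also found in another set chosen by a rule. The same rule with the days in reverse order selects 206 genes in gradual decline. Their mean log2 level was 6.19 on E15, 5.62 on E17, 5.06 on E19, 4.44 on E20 and 3.81 on E21. Per day, their fall was also steeper after E19 than before. This pace is shaped by the selection as well. The mirrored rule leaves out genes whose E15 and E17 means were at least 3 times all later means. The pace of genes outside both selections is not given here. These days are the embryonic days of the labels, and time between E20 and E21 may not be exactly that between hatch and placement.

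**Figure D2:**
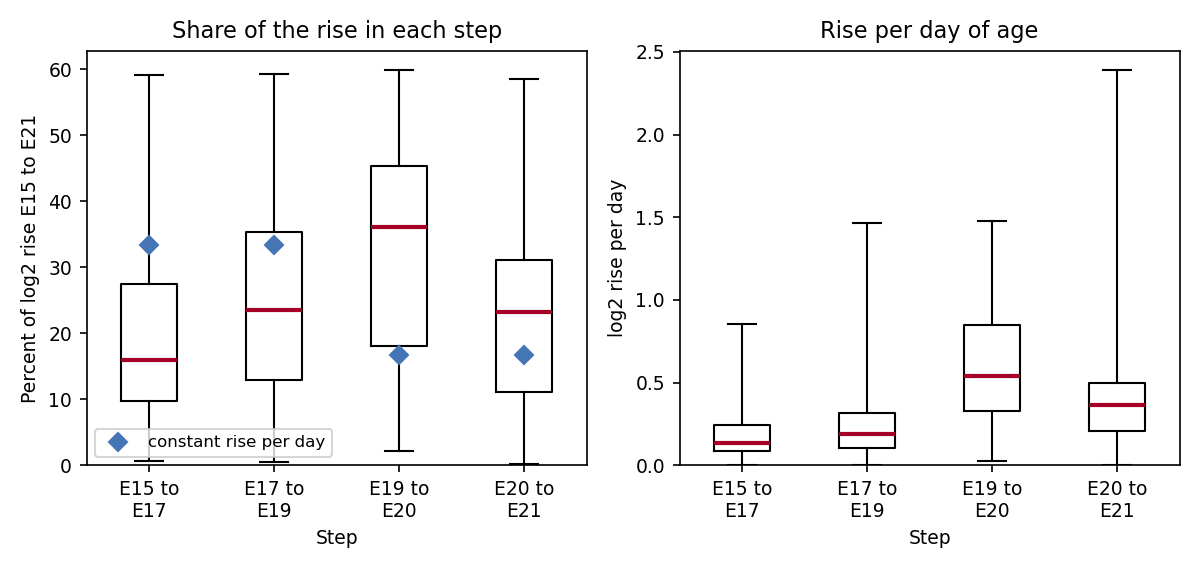
Share of the log2 increase from E15 to E21 in each step (left, percent) and rise per day of age (right, log2 units per day) over the 146 genes. Boxes span the quartiles, red lines are medians, whiskers reach the lowest and highest gene, and blue diamonds mark the share that a constant rise per day would give; the median lies below the diamond in both early steps and above it in both late ones.

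The step with the largest share split the members into 4 courses. The largest group, 72 genes (49.3%), made its biggest move from E19 to E20. The median gene of that group stood at 1.16 times its E15 level on E17, 1.44 times on E19, 2.52 times on E20 and 3.28 times on E21. In 31 genes the biggest step came earlier, from E17 to E19, with medians of 1.3, 2.08, 2.68 and 2.9 times the E15 level at the 4 later days. In 22 genes it came from E15 to E17, with medians of 1.62, 2.15, 2.51 and 3.03 times. In the last 21 it came from E20 to E21, with medians of 1.15, 1.46, 1.9 and 3.01 times. The 4 courses thus ended at similar medians, between 2.9 and 3.28 times, and differed in the way there, which is how they were divided. Increases of at least 4-fold were found in 24 of the 72 genes, 10 of the 31, 3 of the 22 and 6 of the 21. The sizes of these groups belong to the normalised scale. When the selection was repeated on library totals, 9 of the 72 genes, 17 of the 31, 16 of the 22 and 4 of the 21 met the rule again.

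ENSGALG00000004509.5 was the most abundant member and the gene with the second highest mean of the whole table on E21. Its E15 libraries held 3393, 3578, 3182, 3196, 3872 and 3607 normalised counts, and its E17 libraries 4154, 4179, 3952, 4116, 4390 and 4384. The lowest library of E17 was above the highest of E15, so these days did not overlap although their means differed by a ratio of only 1.21. At E19 the libraries stood at 5872, 4865, 5318, 4482 and 5192 normalised counts, and on E20 at 10075, 14214, 13100, 14691 and 15518. The lowest E20 library was above all E19 libraries, and the ratio of means was 2.63. The E21 libraries held 14352, 21778, 20814 and 16190 normalised counts, and 2 E20 libraries lay above the lowest of them.

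The day means of ENSGALG00000004509.5 were 3471 ± 267 normalised counts on E15, 4196 ± 168 on E17, 5146 ± 519 on E19, 13520 ± 2115 on E20 and 18283 ± 3580 on E21. Its total increase was 5.27-fold, of which the step to E20 held 58.1% on the log2 scale, near the limit of the selection. In the edgeR fit with TMM factors, its steps to E17 and E19 were not called (adjusted p 0.069 and 0.052). The steps to E20 and E21 were called (adjusted p 2.8e-11 and 0.0082). With library totals in place of normalisation factors, the log2 fold changes fitted by edgeR were 0.01 for the first step and 0.04 for the second, against 0.26 and 0.29 with TMM factors, so its early steps were near 0 on the scale of library totals.

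ENSGALG00000007114.6 had the largest ratio among members with an E15 mean of at least 5 normalised counts. In the E15 libraries it stood at 105.6, 58.7, 99.7, 119.9, 111 and 83.4 normalised counts, and on E17 at 197, 171, 214, 199, 312 and 179. At E19 the values were 2546, 2074, 1212, 1361 and 901, each above every E17 library and spread over a wide range. The E20 libraries held 3253, 4706, 2708, 3069 and 3264 normalised counts, all above E19. At E21 the values were 2616, 3648, 4209 and 3975, within or just below the range of E20. The means were 96.4 ± 22.2 on E15, 212 ± 51.6 on E17, 1619 ± 673 on E19, 3400 ± 764 on E20 and 3612 ± 703 on E21. The gene thus ended 37.3 times above E15, with a 7.62-fold difference between E17 and E19 and a ratio of 1.06 between E21 and E20, where the libraries overlapped. With library totals its fitted log2 fold changes were 0.86, 2.68, 1.42 and 0.46 over the 4 steps, against 1.11, 2.93, 1.09 and 0.09 with TMM factors, so all 4 stayed positive on either scale.

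**Figure D3:**
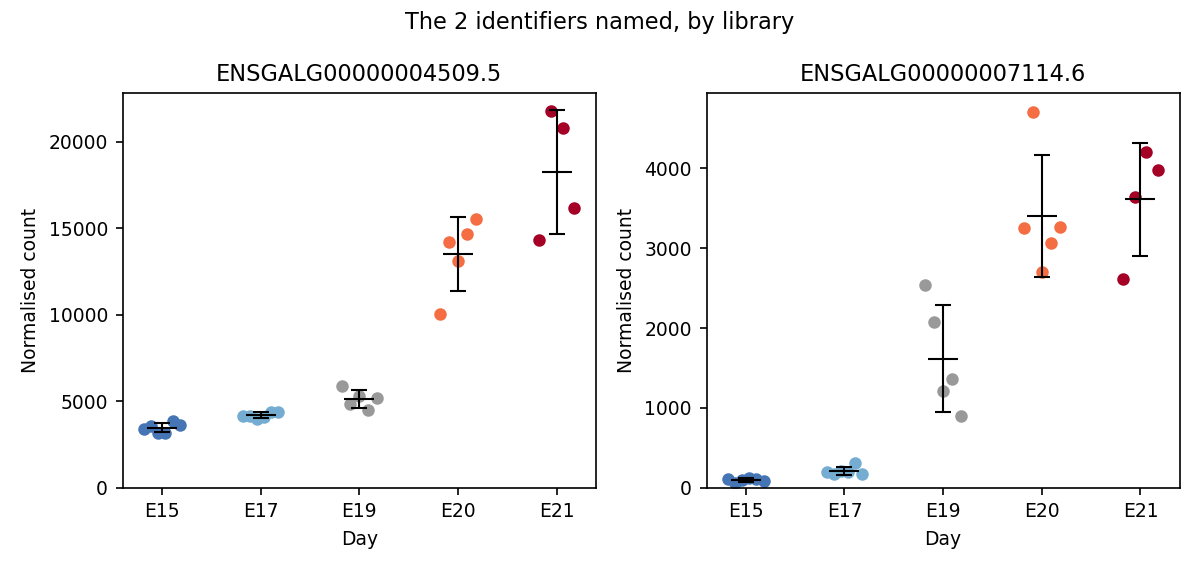
Normalised counts of ENSGALG00000004509.5 (left) and ENSGALG00000007114.6 (right) in each library, by day. Coloured points are libraries, black bars the mean and SD of a day; the left gene has its widest gap between E19 and E20, and the right gene leaves the E15 and E17 range on E19.

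Another member was the only one of the 5901 genes tested that was called higher at all 4 steps, and it is described here because of that, after its values were seen. In the edgeR fit with TMM factors its adjusted p was 0.0021, 3.3e-06, 0.034 and 0.017 over the 4 steps. Calls for this member on other scales are not given here. Its E15 libraries lay between 113.1 and 146 normalised counts and its E17 libraries between 152.6 and 232, without overlap. The E19 libraries lay between 284 and 406, again above all of E17, while the E20 libraries, between 342 and 516.3, overlapped with E19. The E21 libraries lay between 516.4 and 693. The day means were 130.9 ± 11.2 on E15, 191 ± 29.1 on E17, 360 ± 46.4 on E19, 455 ± 66.9 on E20 and 617 ± 82.4 on E21, an increase of 4.7-fold. Its rise per day on the log2 scale was 0.27, 0.45, 0.34 and 0.44 over the 4 steps.

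The member whose largest step held the smallest share of its increase, chosen in the same way, had no step above 30.6% of the total, and its last step held 11.8%. Its means were 19 ± 5.85 normalised counts on E15, 26 ± 5.63 on E17, 36.8 ± 5.21 on E19, 51.6 ± 10.4 on E20 and 59 ± 11.5 on E21. Each pair of successive days overlapped in single libraries, from 13.3 to 29.2 on E15 against 19.6 to 34.8 on E17, and from 34.8 to 59 on E20 against 47 to 72.5 on E21. None of the 4 steps of this low member separated the libraries of neighbouring days.

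A few members were almost absent at the start. The E15 mean was under 5 normalised counts in 7 members, and 4 of the 8 members with increases of at least 10-fold were among them. The lowest had 7 counts over the 6 libraries of E15, with 3 of them at 0, then 7 counts on E17, 7 on E19, 27 on E20 and 193 on E21, where its mean was 35.4 ± 6.93 normalised counts. Another had 13, 22, 28, 54 and 505 counts on the 5 days and a 36.1-fold ratio of means. A count of 0 in a library allows up to 1.16 normalised counts in the library with the largest size factor and 6.64 in that with the smallest, taking 3 counts as the limit and counting error only. In the first of these genes the means on E15, E17 and E19 (0.787, 1.13 and 2.21 normalised counts) rested on 7 counts each. Zeros were rare over all members: 12 of 3796 values in 6 members, 8 of them on E15, and none on E20 or E21.

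The neighbouring days were compared with the quasi-likelihood test of edgeR over all 5901 genes that passed a filter on low counts, and all 146 members passed it. A gene was called at an adjusted p under 0.05. Since the day means chose the members, the counts describe how well single steps stood out from the spread between libraries and support nothing more. From E15 to E17, 33 members were called higher and none lower, beside 9.08% of all genes called higher. From E17 to E19 the count was 35, beside 9.88% of all genes, and from E19 to E20 it was 76, beside 13.9%. From E20 to E21 it was 42 of 146, beside 5.74% of all genes. With E21 set against E15 directly, all 146 were called, beside 27.3%. The share of members called was thus 22.6%, 24%, 52.1% and 28.8% at the 4 steps. The count for the last step was 27 without E20 replicate 1, 26 without E20 replicate 3 and 27 without E21 replicate 5, beside 4.11%, 4.58% and 4.13% of all genes. With library totals in place of TMM factors the counts were 9, 20, 126 and 113 over the 4 steps, beside 3.14%, 5.49%, 29.8% and 28.8% of all genes called higher on that scale, and 1 member was called lower on E17.

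Most members passed the test at few steps. No step was called in 31 members, 1 in 61, 2 in 38, 3 in 15 and 4 in 1, although each of the 31 was called between E15 and E21. Over all 5901 genes tested the corresponding numbers were 4061, 1449, 345, 45 and 1. More steps were called in more abundant members. Of the 33 members with E21 means between 20 and 50, 17 had a called step and 1 had at least 2. Of the 30 members at 300 or more, 29 had a called step and 25 had at least 2. The median coefficient of variation between E15 libraries was 30.4% in the former group and 14.3% in the latter, with median increases of 3.35-fold and 3.3-fold. Low members carried wider relative errors at increases of similar size, and fewer of their steps were separated from the error. Calls by level over all genes tested are not given here, so this dependence on level is not read as particular to the members.

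The ranges of single libraries gave a similar description. At the step to E17, 20 members had every E17 library above every E15 library, beside 3.81% of the 8758 genes of the table. At the step to E19, 23 members did, beside 3.68%. At the step to E20 the count was 39, beside 5.3%, and at the step to E21 it was 38, beside 4.36%. Between E15 and E21, 143 of the 146 members did not overlap, beside 15.8% of all genes. At no member did all 4 steps separate in this way, 9 members had 3 such steps, and 66 had none. The number of such steps per gene over all genes is not given here, so these last counts are not read as particular to the members.

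Averaged over the members, the libraries lined up by day. The mean of log2 (normalised count + 0.5) over the 146 genes was 5.06 ± 0.06 on E15, 5.43 ± 0.09 on E17, 5.89 ± 0.06 on E19, 6.51 ± 0.12 on E20 and 6.94 ± 0.07 on E21. No library of a day reached the range of the next day: the highest were 5.14 on E15, 5.55 on E17, 5.95 on E19 and 6.69 on E20, and the lowest were 5.29 on E17, 5.8 on E19, 6.4 on E20 and 6.87 on E21. The rule on the day means favours this order, and it is given without a test.

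This picture changed with the scale. With counts divided by library totals, the same average was 5.33 ± 0.05 on E15, 5.45 ± 0.08 on E17, 5.67 ± 0.09 on E19, 6.63 ± 0.12 on E20 and 7.44 ± 0.08 on E21. E17 libraries then ranged from 5.31 to 5.53 and overlapped with the E15 libraries, which ranged from 5.25 to 5.37. On that scale 77 of the 146 members were higher on E17 than on E15 and 101 were higher on E19 than on E17. All 146 were higher on E20 than on E19, and all were higher on E21 than on E20. The median step was 0.01, 0.14, 0.9 and 0.74 in log2 units, against 0.26, 0.38, 0.54 and 0.37 on the normalised scale.

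Library totals also shifted the whole table, with median steps over all genes of -0.32, -0.26, 0.33 and 0.33, whereas the deposited normalisation left them at -0.08, -0.03, 0 and -0.02. The TMM factors of edgeR, which offset such shifts, lay between 1.07 and 1.16 on E15, between 0.897 and 1.02 on E17, between 0.749 and 0.837 on E19, between 0.97 and 1.02 on E20 and between 1.22 and 1.33 on E21. On the normalised scale the median gene did not go up at any step, so a gain of the members on it follows from the rule. Their share of the sequenced RNA barely moved up to E17. The selection itself, repeated on library totals, gave 118 genes, of which 46 were members.

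**Figure D4:**
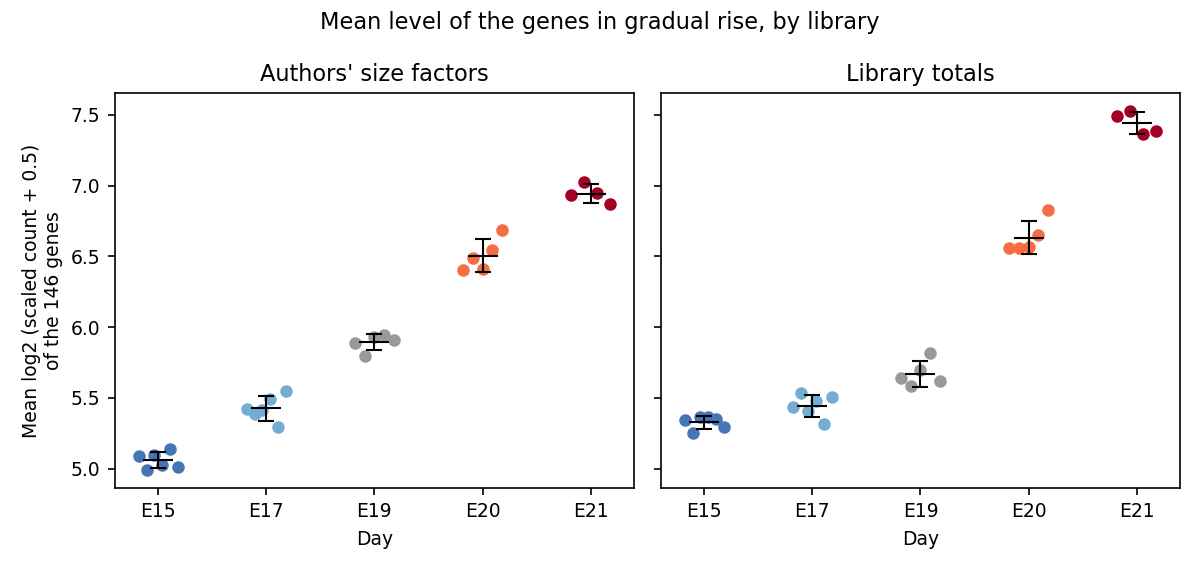
Mean log2 level of the 146 genes in each library with the deposited size factors (left) and with library totals (right), by day. Points are libraries and black bars the mean and SD; on the left the day means go from 5.06 to 6.94 in 4 steps without overlap, and on the right E15 to E19 lie between 5.25 and 5.81, with most of the increase after E19.

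As a share of all counts in a library, which is again the scale of library totals with its shifts of the whole table, the members went from 1.6% ± 0.02 on E15 to 1.67% ± 0.06 on E17 and 1.98% ± 0.12 on E19. The share then stood at 4.28% ± 0.33 on E20 and 7.14% ± 0.5 on E21. No library of E17 was below the highest of E15, and the closest values were 1.63% on E15 against 1.64% on E17. A single gene took a large part of this. ENSGALG00000004509.5 held on average 22.5% of the members' counts on E15, 21.7% on E17, 18.9% on E19, 29.3% on E20 and 30.7% on E21. Without it the share of the remaining members was 1.24% ± 0.02 on E15, 1.31% ± 0.04 on E17, 1.61% ± 0.12 on E19, 3.02% ± 0.16 on E20 and 4.94% ± 0.18 on E21. On this scale the median of all genes moved up by 0.33 at the step to E20 and by 0.33 at the step to E21.

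**Figure D5:**
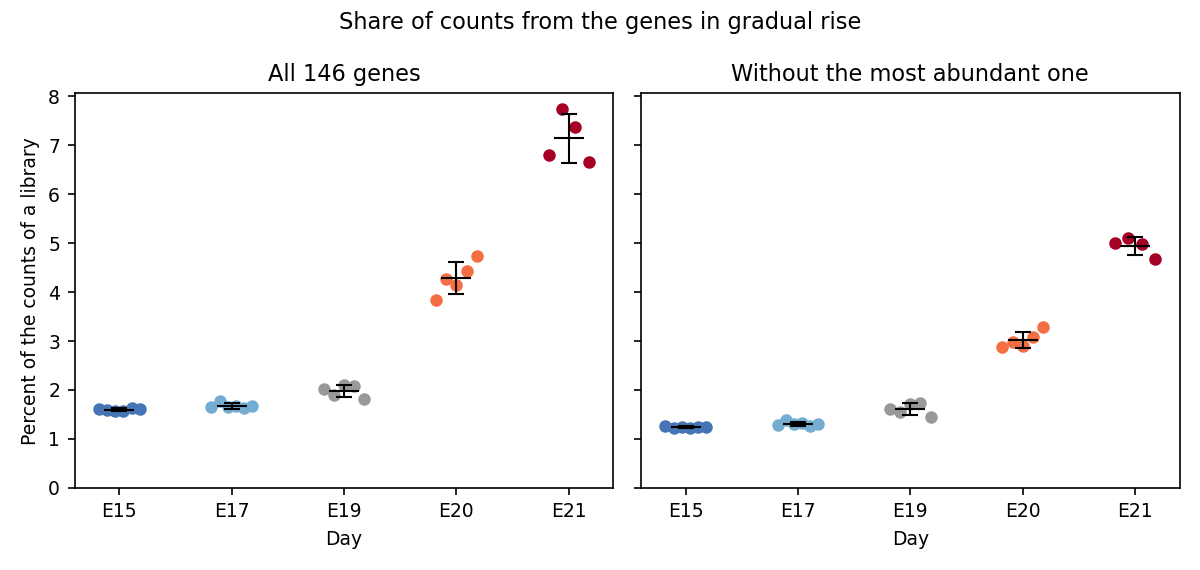
Percent of the counts of a library that came from the 146 genes (left) and from the same genes without ENSGALG00000004509.5 (right), by day. Points are libraries and black bars the mean and SD; the share stays under 2.1% up to E19 and reaches 6.66% to 7.73% on E21 for all 146 genes.

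Membership of single genes was less stable than the average. When each of the 26 libraries was left out in turn, the selection found between 131 and 156 genes, of which between 126 and 139 were among the 146. Of the 146, 64 (43.8%) were found in every one of these 26 repeats. They had a median E21 mean of 154 normalised counts, and the 82 that were lost at least once had a median of 70.1. Leaving out libraries of E19 or E20 affected the most genes, with 45 members lost on leaving out some E19 library and 43 on leaving out some E20 library, against 29 for E15, 31 for E17 and 31 for E21. With day medians in place of means, 122 genes met the rule, 88 of them members.

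In all, 29 members met the rule both on library totals and without any single library.

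How libraries of the same day differed from each other was not used to choose the members. The median coefficient of variation between libraries of a day, over members with a mean of at least 20 on that day, was 16.1% on E15, 16.3% on E17, 23% on E19, 20.8% on E20 and 17.4% on E21. For all genes of the table above the same level it was 16.4%, 17%, 23.1%, 20.8% and 16.3%. The members were therefore about as variable within a day as other genes, and both were most variable on E19. Library totals lay between 580768 and 1106816 counts on E19 and between 632074 and 1373614 on E20. The cause of the wider spread on E19 was not tested. In log2 CPM the within-day SD had a median of 0.29 over 72 members of middle level and of 0.3 over the 2023 tested genes of the same range of levels.

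Within a day, members deviated together only weakly. After the day means were removed, the median correlation between 2 members across the 26 libraries was 0.04, with 56.6% of pairs above 0, against 0 and 50% over all genes tested. The median correlation of a member with the sum of the others was 0.22, against 0.03 for a gene among all genes tested. These sets were not matched in level, with a median log2 CPM of 5.6 for the members and 4.68 for all genes tested. Nor were they matched in size, with 146 and 5901 genes. Correlations with the sum of the others are therefore not directly comparable between them. For the 206 genes of the mirrored rule, which decline gradually, these medians were 0.07 and 0.23. Such correlations are across genes that share libraries, depth and normalisation, and they are given as descriptions.

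The average level of the members and that of the gradually declining genes deviated in opposite directions from their day means in 20 of the 26 libraries. On E20, replicate 5 was 0.18 above the day mean for the rising genes and 0.16 below it for the declining ones, in log2 units, while replicate 1 was 0.1 below for the rising genes and 0.17 above for the declining ones. At E17, replicate 5 was 0.13 below for the rising and 0.15 above for the declining genes. The cause of this opposition was not tested.

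In the authors' deposited table, 30 of the 146 members carried a call of higher expression in at least 1 step between successive days, beside 5.78% of all genes. Those calls, which ask for an adjusted p of at most 0.05 and at least a 2-fold change, placed 23 members in the cluster numbered 5 of the authors' deposited table and 7 in cluster 4, which is 7.82% and 4.29% of those clusters. The remaining 116 members (79.5%) are in none of these clusters of the authors' deposited table, as are 7841 of all 8758 genes. In the comparison of samples after against before hatching, 90 members were called higher in the authors' deposited table, beside 5.91% of all genes. Clusters attributed to maSigPro, a method for time courses, held 24 members in the authors' deposited table, 16 in cluster 2 and 8 in cluster 3, which is 14.7% and 16.7% of those clusters, while 8414 of all 8758 genes are in none. All these calls come from the same libraries and describe the members without adding to the evidence for them.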

How the data were processed

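RNA of 26 complexus samples was measured by MARS-Seq. Tools listed in the submitters' processing notes are STAR 2.7.10a, HTSeq 2.0.2 and DESeq2. The sources used here do not give the genome build, annotation, strand handling or use of molecular identifiers, so reads of near-identical or overlapping genes cannot be told apart. The authors deposited raw whole-number counts for each library. Beside them they deposited normalised counts, per the file headers, a signal equal to the count divided by 1 size factor per library (0.452 to 2.58), within a relative difference of 6.06e-05 for counts of 200 or more. Log2 fold changes and adjusted p-values of the authors' comparisons, and cluster numbers, are deposited beside them, with thresholds of 0.05 for the adjusted p, 1 for the absolute log2 fold change and 30 for the maximum count. No listed gene had a maximum count below 6.

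Members were chosen from day means of the normalised counts as the report describes. With the 3-fold clause read without 0.5 added, 145 genes would result. The members, lists and tests were chosen with earlier results of these data known. Levels are the deposited normalised counts. edgeR 4.0.16 in R 4.3.3 (TMM factors, low genes removed by filterByExpr at its minimum count of 10 and total of 15, quasi-likelihood test, Benjamini-Hochberg over 5901 genes) was fitted to the counts of all 26 libraries with day as the only term; the kept genes held 99.2% of the counts. It was tested on simulated data. DESeq2 1.42.0, other scalings, other filters, the replicate number as a block and leaving out each library were alternatives. Within-day SDs and correlations of single genes used log2 CPM. Deviations of the average levels of rising and declining genes used log2 of the normalised counts with 0.5 added. The 2 printed identifiers are the member with the highest E21 mean and that with the largest E21 to E15 ratio among members with an E15 mean of at least 5. Gene lists and cell type markers that need names are not analysed here. Of 56 pairs of replicates none was identical, and the chi-square of their counts per degree of freedom was at least 2.76. Each library was counted as 1 sample. These values cannot show that libraries came from separate birds, since repeated preparations of the same RNA can also differ by more than counting error. Intervals and floors cover counting error only.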

Additional observations from a re-analysis of the deposited data

Results flagged for a closer look

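In each of 20 groups of libraries (the members' mean level, their share of counts and the 2 named genes, on 5 days), the highest and lowest library were compared with the others of its day, and 3 stood apart by Dixon's criterion. Chance marks about 1 in 20 groups. The members' share of counts was 1.78% in E17 replicate 2, above the other 5 libraries of that day. ENSGALG00000007114.6 stood at 312 normalised counts in E17 replicate 5 and at 4706 in E20 replicate 2, each above the other libraries of its day. No cause was tested.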

How the results depend on the processing

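The number of genes that met the rule stayed within 1.5 times 146 under 12 of 13 other settings and without each library, and was 81 when E21 had to be at least 3 times E15. A similar number did not mean the same genes: 46 of 118 on library totals and 88 of 122 with day medians were members. Scaling by library totals kept the 146 calls between E15 and E21, beside 35.6% of all genes called higher, and moved the results on single steps. On that scale 9 members were called higher (and 1 lower) at the step to E17, 20 at the step to E19, 126 at E20 and 113 at E21, beside 3.14%, 5.49%, 29.8% and 28.8% of all genes called higher. The median shares of the rise became 0.585%, 7.68%, 49% and 40.2%. The change in the members' mean level became 0.12, 0.22, 0.96 and 0.81 over the 4 steps and 2.11 from E15 to E21, all still positive. The share of counts without the most abundant member, an alternative chosen after seeing the data, was 1.24%, 1.31%, 1.61%, 3.02% and 4.94% on the 5 days. The count at the step to E21 ranged from 26 (beside 4.58% of all genes) to 45 (beside 6.04%) when single libraries were left out. It was 27 without E20 replicate 1, 26 without E20 replicate 3 and 27 without E21 replicate 5, beside 4.11%, 4.58% and 4.13%. The counts at the other steps stayed within 1.5 times. Median-of-ratios factors, no filter, DESeq2 and fits of only the 2 days compared left all counts within 1.5 times.

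With the replicate block, 32, 33, 72, 28 and 146 members were called over the 4 steps and from E15 to E21, beside 8.34%, 8.9%, 12.5%, 4.08% and 26.5% of all genes. The labels do not say whether equal replicate numbers mark a shared bird, clutch or run. Deviations of same-numbered libraries of 2 days correlated between -0.12 and 0.07 over 45 pairs, and 6 of the 45 were highest with their own number. These values cannot decide the question, since a shared origin need not show in them. ENSGALG00000004509.5 changed its side of the edgeR threshold under 4 settings at the step to E17, 8 at the step to E19 and 2 at the step to E21, with no change of direction. In the main fit its steps to E17 and E19 were not called and that to E21 was. Depth limits the low members most, as their early means rest on few counts.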
